A study of Mus musculus with 3 samples.

Results

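Collagen chain genes were followed in Melan-a NRAS61K cells kept in 1 µg/ml doxycycline for 6, 14 or 28 days. Melan-a is a line of immortalized mouse melanocytes, and the name of the derived line refers to the NRAS61K oncogene. The series title concerns highly tumorigenic cells that arise from cells made senescent by this oncogene. All 3 groups carried the same oncogene and agent, and the time of treatment is the only difference the labels give. With 1 array for each time, differences between cultures or arrays cannot be told apart from time. An untreated array was not analysed here. The members were all genes whose probe sets carry a single symbol of the form Col, number, a, number in the platform annotation. They numbered 42 genes with 82 probe sets, of 18194 genes and 45101 probe sets in all.

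Collagens are secreted proteins built of 3 chains wound into a triple helix. Fibrillar collagens form the rope-like fibrils of skin, bone and cartilage, type IV chains form the mesh of basement membranes, and FACIT collagens (fibril-associated collagens with interrupted triple helices) sit on the surface of fibrils. The remaining types include the beaded filaments of type VI, the networks of type VIII and collagens anchored in the cell membrane. Melanocytes in skin rest on a basement membrane and are not themselves major producers of fibrillar collagen, for which fibroblasts and chondrocytes are known.

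Several promoters are shown first because the genes behind them had large differences (Col20a1, Col27a1, Col11a1), because a neighbouring pair parted (Col4a5 and Col4a6), or because the gene was lower at day 28 (Col8a1). Each sequence is the 250 bases before a RefSeq transcript start in GRCm38.p6, written 5′ to 3′ on the strand of the gene, and capitals mark motif matches on either strand.
Col20a1, chr2:180986285-180986534, + strand: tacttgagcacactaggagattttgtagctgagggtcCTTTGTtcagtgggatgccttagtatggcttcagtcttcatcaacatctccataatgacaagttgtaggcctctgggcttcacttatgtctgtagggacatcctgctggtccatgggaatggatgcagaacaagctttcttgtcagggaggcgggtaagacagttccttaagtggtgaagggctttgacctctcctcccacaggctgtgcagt
Col27a1, chr4:63215162-63215411, + strand: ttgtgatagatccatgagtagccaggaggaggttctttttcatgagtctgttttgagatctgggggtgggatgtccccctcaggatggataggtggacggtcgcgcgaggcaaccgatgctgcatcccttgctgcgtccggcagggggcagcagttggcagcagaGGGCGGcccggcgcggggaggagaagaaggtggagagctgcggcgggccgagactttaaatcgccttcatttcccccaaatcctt
Col11a1, chr3:114030290-114030539, + strand: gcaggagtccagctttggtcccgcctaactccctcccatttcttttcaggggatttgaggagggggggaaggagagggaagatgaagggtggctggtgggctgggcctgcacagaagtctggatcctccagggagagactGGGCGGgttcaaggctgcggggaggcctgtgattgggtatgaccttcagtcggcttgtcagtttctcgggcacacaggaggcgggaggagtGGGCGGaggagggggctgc
Col4a5, chrX:141475169-141475418, + strand: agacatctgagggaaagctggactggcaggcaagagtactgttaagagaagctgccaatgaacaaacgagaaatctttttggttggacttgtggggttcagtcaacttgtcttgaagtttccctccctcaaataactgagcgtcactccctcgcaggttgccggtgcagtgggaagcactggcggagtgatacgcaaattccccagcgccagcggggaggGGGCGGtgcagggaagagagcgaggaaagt
Col4a6, chrX:141474077-141474326, - strand: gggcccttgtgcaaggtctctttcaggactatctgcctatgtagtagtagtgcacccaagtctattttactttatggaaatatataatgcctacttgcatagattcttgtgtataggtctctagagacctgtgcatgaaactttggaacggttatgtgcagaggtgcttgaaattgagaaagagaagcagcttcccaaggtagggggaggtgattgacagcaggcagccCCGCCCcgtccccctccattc
Col8a1, chr16:57754738-57754987, - strand: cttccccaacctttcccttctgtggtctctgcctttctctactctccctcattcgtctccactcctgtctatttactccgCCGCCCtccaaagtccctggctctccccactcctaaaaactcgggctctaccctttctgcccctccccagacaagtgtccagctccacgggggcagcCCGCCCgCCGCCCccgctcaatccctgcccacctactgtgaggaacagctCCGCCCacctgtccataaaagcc
The motifs searched were ACAAAG or ACAATG (the core bound by SOX factors), TGANTCA (AP-1), CACGTG or CATGTG (E-boxes bound by factors such as MITF), TATAAA (the TATA box) and GGGCGG (the GC box bound by SP1). A SOX core was the only match in the Col20a1 window, read on the opposite strand as CTTTGT. The matches in the other windows shown were all GC boxes, 1 each in Col27a1, Col4a5 and Col4a6, 2 in Col11a1 and 4 in Col8a1. A window was at hand for 33 of the 42 genes, in 36 promoters. The GC box was present in 58.3% of these 36, and in 32.7% of all 32851 windows of this length. The SOX core was present in 8.33% against 25.2%, the E-boxes in 8.33% against 17.6%, the TATA box in 13.9% against 12.4%, and AP-1 in 2.78%, the Col6a1 window alone, against 6.75%. These matches are letters in a window and do not show a bound site.

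The deposited values had a median of 22.9 on each array and were taken as log2, an assumed base that is not given. For each array a background was set at the 90th percentile over 64 genes known as silent in pigment cells (106 probe sets). It came to 22.73 on the day 6 array, 22.59 on the day 14 array and 22.79 on the day 28 array. One probe set stood for each gene, the one with the highest mean. Of the 42 collagen genes, 27 lay above the background on at least 1 array (64.3%, against 65.8% of all genes), 15 on all 3 arrays and 15 on none. The count above background was 16 on the day 6 array, 26 on the day 14 array and 23 on the day 28 array, while the numbers for all genes were 11296, 11507 and 11315. Those on no array were Col5a2, Col11a2 and Col24a1 of the fibrillar class, Col4a3 of the basement membrane class, Col19a1 and Col22a1 of the FACIT class, and Col6a3, Col6a4, Col6a5, Col8a2, Col10a1, Col13a1, Col17a1, Col23a1 and Col26a1 of the others. With 1 array per time there is no spread between cultures and no test. The only error at hand was the SD of log2 differences between probe sets of one gene, which was 0.32 for day 28 over day 6, 0.30 for day 14 over day 6 and 0.24 for day 28 over day 14. It covers the spread between probe sets on the same arrays, and neither an error shared by a whole array nor the culture.

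**Figure D1:**
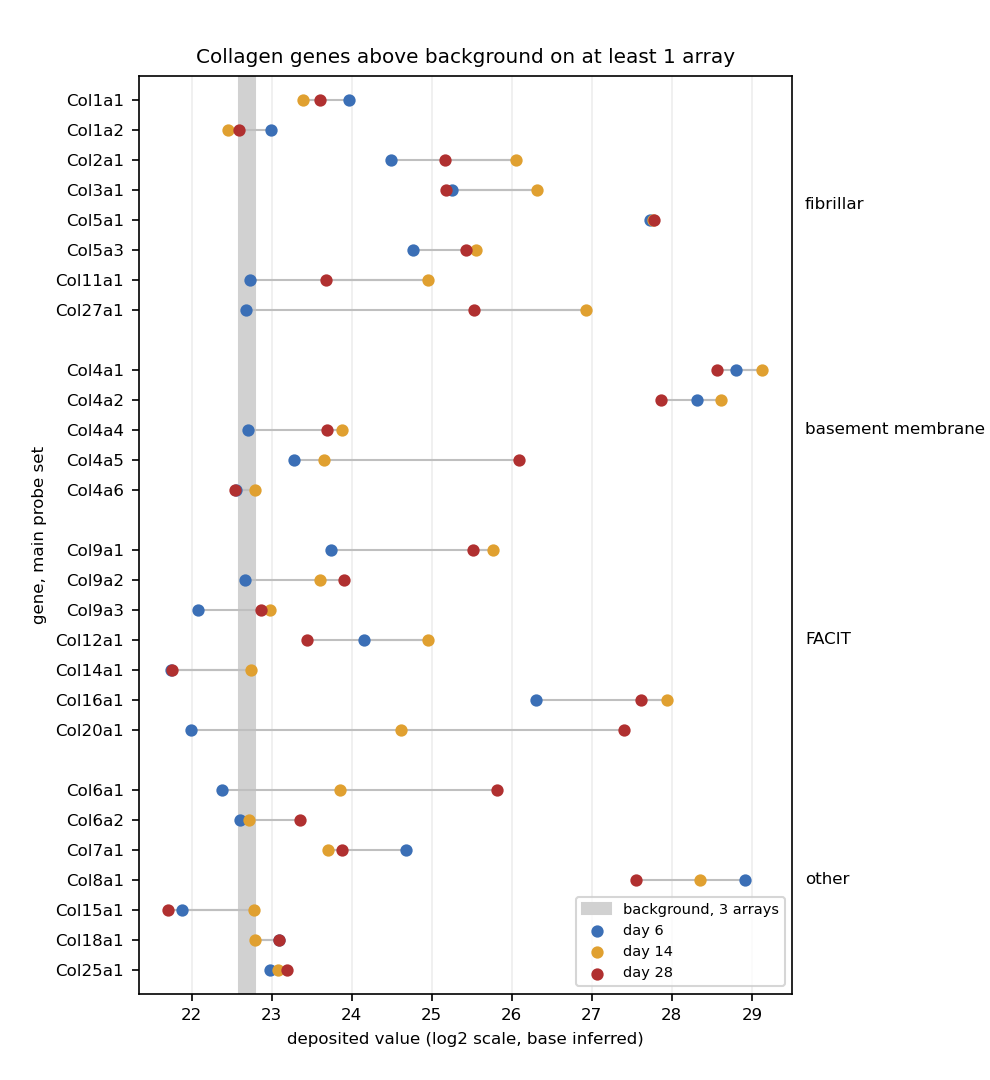
Deposited values (log2 scale, horizontal axis) of the 27 collagen genes above background on at least 1 array, 1 row per gene and 1 point per array, with the grey band spanning the 3 array backgrounds from 22.59 to 22.79. Col20a1 and Col6a1 step up with time, Col8a1 steps down, and Col27a1, Col11a1, Col2a1 and Col3a1 are highest at day 14.

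Differences are given as later minus earlier on the log2 scale, and a gene was counted from a difference of 1, which is 2-fold. A gene was described in a comparison when at least 1 of its 2 arrays was above background. Where the dimmer array was below it, the fold is a lower bound, taken against that array's background. At day 14 against day 6, 9 collagen genes were 2-fold higher and 0 lower among 27 described, where 5.45% of all genes described were higher and 3.92% lower. At day 28 against day 14, 3 were higher and 5 lower among 26, beside 2.20% and 1.45% of all genes. At day 28 against day 6, 7 were higher and 1 lower among 24, beside 6.55% and 4.04%. A gene that entered through its brighter array alone had to differ, so the counts were also taken over genes above background on both arrays. These were 4 higher and 0 lower of 15 at day 14 against day 6 (4.40% and 3.35% of all genes), 3 higher and 4 lower of 23 at day 28 against day 14 (1.48% and 1.04%), and 3 higher and 1 lower of 15 at day 28 against day 6 (4.97% and 3.53%). The comparisons share arrays in pairs, so an error of one array enters both comparisons that use it. In all, 14 of the 27 genes were 2-fold apart in at least 1 comparison, beside 15.2% of all genes. Col4a4, Col9a2 and Col15a1 entered this total only through comparisons with 1 array below background, and Col15a1 had no bound. The total was not repeated for genes above background on both arrays.

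The median log2 difference was 0.80 at day 14 against day 6, -0.22 at day 28 against day 14 and 0.67 at day 28 against day 6, while the medians over all genes described were -0.03, 0.03 and 0.01. The first and last of these rest on the genes that were dim on the day 6 array. Over the genes above background on both arrays the medians were 0.33, -0.13 and 0.01. Of the 25 gene differences at 2-fold, 16 had another probe set of the gene above background on at least 1 array. With values below background raised to it, these took the direction of the main probe set for all 16 and reached 2-fold for 14, the exceptions being Col3a1 and Col4a4 at day 14 against day 6.

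**Figure D2:**
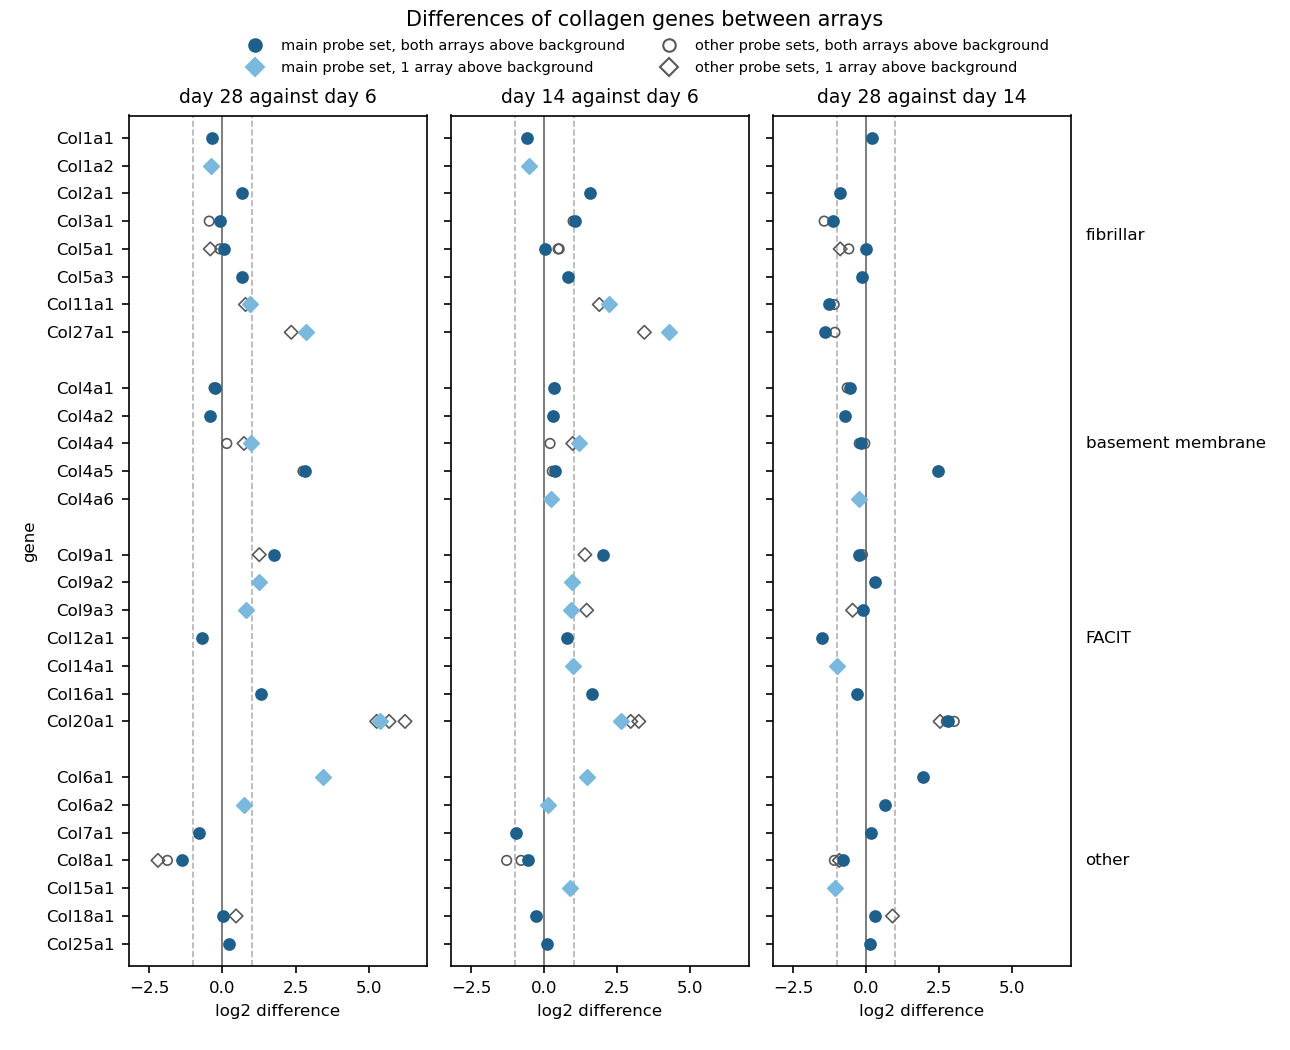
Log2 differences of the same 27 genes (horizontal axis, later minus earlier) in the 3 comparisons, with the main probe set filled, other probe sets open, and dashed lines at 2-fold. Diamonds had 1 array below background, so their distance from 0 is not a measured size. At day 28 against day 6 all 4 probe sets of Col20a1 are diamonds and lie right of the 2-fold line.

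Of the 8 fibrillar genes described at day 14 against day 6, 4 were 2-fold higher at day 14, beside 5.45% of all genes described. Of these 4, Col27a1, Col11a1 and Col2a1 are known from cartilage. Col27a1, the chain of type XXVII, a fibrillar collagen of the cartilage growth plate, had values of 22.68, 26.93 and 25.53 at days 6, 14 and 28. Day 6 lay just below the background, so day 14 was at least 18.3-fold above day 6 and day 28 at least 6.94-fold above day 6. Day 28 was 2.64-fold lower than day 14, and the second probe set was at least 9.38-fold higher at day 14 than at day 6, then differed by -1.07 on the log2 scale. Col11a1, a chain of type XI, which nucleates cartilage fibrils, had 22.73, 24.96 and 23.68, with day 6 at the background itself. Day 14 was at least 4.66-fold above day 6. The gene was 2.42-fold lower at day 28 than at day 14, while its second probe set was at least 3.43-fold higher in the first step and differed by -1.10 in the second. Col2a1, whose chains form the main fibrils of cartilage, had 24.48, 26.05 and 25.16. Its day 14 value was 2.96-fold above day 6, and its day 28 value was 1.85-fold below day 14.

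The fibrillar chains of skin and other soft tissue did not share one course. Col3a1, which forms the homotrimer of type III in skin and vessels, had 25.25, 26.31 and 25.17, so day 14 alone stood out. At day 14 it stood 2.08-fold above day 6, and it was 2.20-fold lower at day 28 than at day 14. Col5a3, a minor type V chain, had 24.76, 25.56 and 25.43, which stayed within 2-fold. Col5a1, the chain that starts fibril assembly in skin, had 27.73, 27.77 and 27.77, and was the flattest of the fibrillar genes above background on all 3 arrays. Its 2 other probe sets gave 0.47 and 0.51 at day 14 against day 6 and -0.89 and -0.59 at day 28 against day 14, the first of these with day 28 below the background. The type I chains, the main collagen of skin and bone, were not 2-fold apart between any arrays above background. Col1a1 had 23.97, 23.39 and 23.60, and its partner Col1a2 had 22.99, 22.46 and 22.59, above the background at day 6 alone.

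Counted by class, 4 of the 8 fibrillar genes described were 2-fold higher and 0 lower at day 14 against day 6, and 0 were higher and 3 of 7 lower at day 28 against day 14. At day 28 against day 6 only Col27a1 was 2-fold apart, of 8. Of all genes described, 5.45% were higher and 3.92% lower at day 14 against day 6, and 2.20% and 1.45% at day 28 against day 14. At day 28 against day 6 these shares were 6.55% and 4.04%. The fibrillar medians were 0.93 at day 14 against day 6, -0.89 at day 28 against day 14 and 0.36 at day 28 against day 6. Over all genes described the medians were -0.03, 0.03 and 0.01. Over the fibrillar genes above background on both arrays, 2 of 5 were 2-fold higher at day 14 against day 6, 3 of 7 were lower at day 28 against day 14, and 0 of 5 were 2-fold apart at day 28 against day 6, with medians of 0.80, -0.89 and 0.04. Of all genes so limited, 4.40% were higher at day 14 against day 6 and 1.04% lower at day 28 against day 14. At day 28 against day 6, 4.97% were higher and 3.53% lower. Bulk arrays cannot tell more cells that express a gene from more RNA per cell, here or for any collagen below.

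The FACIT chains included Col20a1, which had the highest lower bound of the family. Col20a1, the chain of type XX, a rarely studied FACIT collagen, had 22.00, 24.62 and 27.40 at days 6, 14 and 28, higher at each later array. It was at least 3.68-fold higher at day 14 than at day 6, 6.89-fold higher at day 28 than at day 14 and at least 25.4-fold higher at day 28 than at day 6. Its 3 other probe sets were also below background at day 6, with bounds of at least 4.33-fold, 18.8-fold and 21.6-fold at day 28 against day 6. Col16a1, the chain of type XVI, which links fibrils and basement membranes in skin, had 26.30, 27.94 and 27.62. It was 3.11-fold higher at day 14 and 2.49-fold higher at day 28, each against day 6, with the day 14 and day 28 arrays close together.

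Of the 3 chains of type IX, which coats the type II fibrils of cartilage, Col9a1 and Col9a2 were 2-fold higher at day 28 than at day 6 and Col9a3 stayed near the background. Col9a1 had 23.74, 25.77 and 25.51, which was 4.06-fold higher at day 14 and 3.41-fold at day 28, each against day 6, and its second probe set was at least 2.20-fold and 2.02-fold higher. Col9a2 had 22.66, 23.61 and 23.91 and at day 28 stood at least 2.25-fold above day 6. Col9a3 had 22.07, 22.98 and 22.87, all near the background, so its bound at day 14 against day 6 was 1.19-fold, and that of a second probe set was 1.42-fold. The other FACIT genes described, Col12a1 and Col14a1, were highest at day 14 but not 2-fold above day 6. Col12a1, whose chains bind type I fibrils, had 24.16, 24.95 and 23.45, stood 1.73-fold above day 6 at day 14 and was 2.84-fold lower at day 28 than at day 14. The 3 other Col12a1 probe sets lay below background on every array, so these folds rest on 1 probe set. Col14a1 had 21.75, 22.74 and 21.75, above the background at day 14 by a small margin. Of 7 FACIT genes described at day 14 against day 6, 3 were 2-fold higher and 0 lower, beside 5.45% and 3.92% of all genes described. Col20a1, Col9a2, Col9a3 and Col14a1 of these 7 were below background at day 6. These 4 entered through the day 14 array alone, which leaves little room for a negative difference. Of the 3 above background on both arrays, Col9a1 and Col16a1 were 2-fold higher and Col12a1 was not, where 4.40% of all such genes were higher. At day 28 against day 6, 4 of 6 FACIT genes described were 2-fold higher and 0 lower, and 2 of 3 among those above background on both arrays. The shares of all genes that were higher were 6.55% of those described and 4.97% of those above background on both arrays.

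Taking the 7 chains of types II, IX, XI and XXVII on the array as cartilage collagens, a set formed with the values known, 6 were above background on at least 1 array and Col11a2 on none. Col2a1 and Col9a1 were above background on all 3 arrays, with folds of 2.96 and 4.06 at day 14 against day 6. Col27a1, Col11a1, Col9a2 and Col9a3 were below background at day 6 and entered through the later arrays alone, with bounds from 1.19-fold for Col9a3 to 18.3-fold for Col27a1, so a count over the 6 is no separate result. Of 8 markers of chondrocytes on the array, 6 lay below background on every array, among them Acan, the aggrecan core protein gene, and Matn1, Matn3, Comp and Hapln1. The others were Cnmd, the gene of the cartilage glycoprotein chondromodulin, and Sox9, the factor that drives cartilage collagen genes. Cnmd had 22.33, 26.15 and 24.40, highest at day 14 like Col27a1 and Col11a1. Sox9 had 23.82, 24.07 and 25.01, highest at day 28. The mean of the 8 markers was 21.75, 22.09 and 22.04. Of 8 melanocyte markers, 7 lay above background on all arrays and Tyr on none, and the mean was 24.38, 26.84 and 26.07, highest at day 14. Dct, Mlana, Slc45a2, Mitf and Tyrp1 were 2-fold higher at day 14 than at day 6, by 40.6-fold, 28.4-fold, 13.2-fold, 5.40-fold and 4.28-fold. Pmel had 23.07, 23.38 and 23.05 and stayed within 2-fold, as did Sox10, with 27.62, 28.34 and 28.50, highest at day 28. The part of the pigment genes in the collagen differences was not tested.

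**Figure D3:**
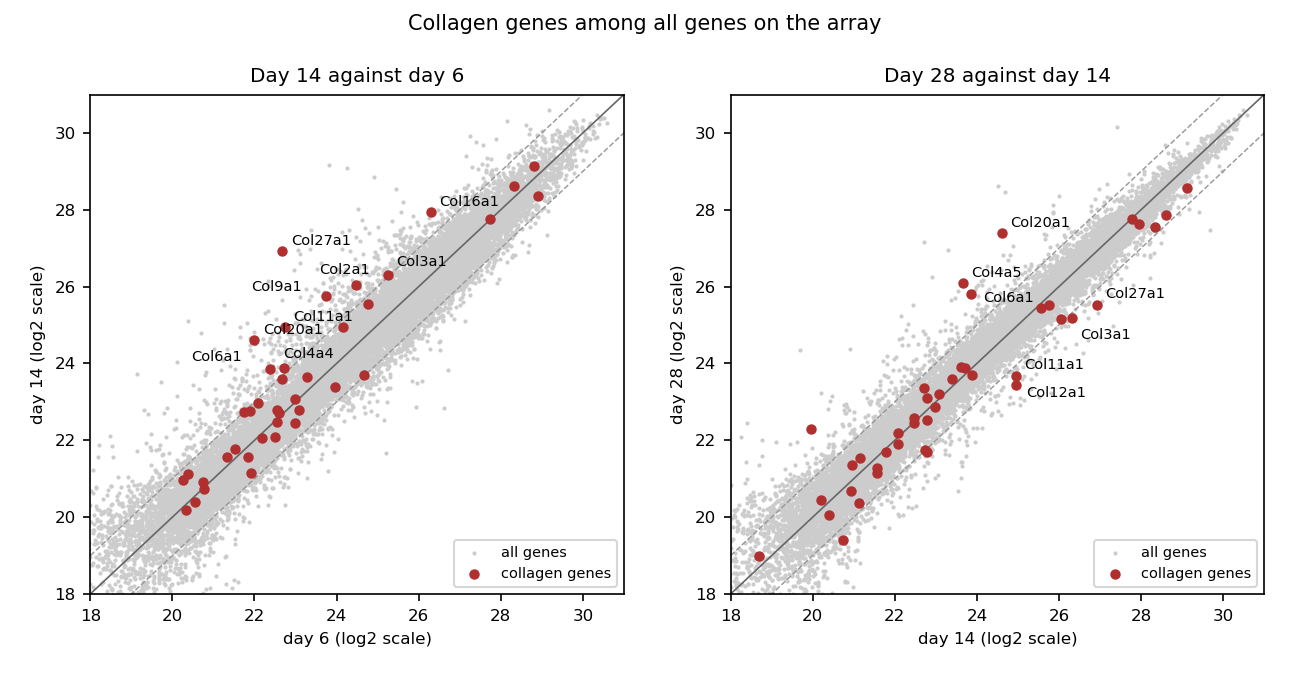
Value on the later array (vertical axis, log2 scale) against value on the earlier array (horizontal axis) for all genes in grey and collagen genes in red, with the line of equality and dashed lines at 2-fold; 2 collagen genes with a day 6 value below the axis range are missing from the left panel. Col27a1 stands above the line in the first step and below it in the second, while Col20a1 and Col6a1 stand above it in both.

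Basement membrane chains split within the type IV family. Type IV chains are coded in head-to-head pairs on opposite strands. The pair of the main network, Col4a1 and Col4a2, moved together. Col4a1 had 28.80, 29.13 and 28.56, and Col4a2 had 28.31, 28.61 and 27.87, so the second step was -0.57 and -0.74 and neither was 2-fold apart. Col4a5, an X-linked chain known from the kidney filter and from skin basement membrane, had 23.28, 23.65 and 26.09. The day 28 array stood alone, 5.44-fold higher than day 14 and 7.05-fold higher than day 6, and the second probe set gave 2.48 and 2.76. Its neighbour Col4a6, whose start lies 1343 bases away on the opposite strand, had 22.55, 22.79 and 22.54, at or near the background throughout. The promoter windows of both are printed above, each with 1 GC box.

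Of the third pair, Col4a4 alone lay above background on any array. Col4a4 had 22.71, 23.88 and 23.69, which was at least 2.22-fold higher at day 14 and at least 1.95-fold higher at day 28, each against day 6. Of its 2 other probe sets, one was at least 1.85-fold higher at day 14 than at day 6 and the other differed by 0.20 on the log2 scale, so the size was not shared by all of them. Col4a3, its neighbour, lay below background on all arrays, at 21.92, 21.16 and 21.54, so its course and that of Col4a4 cannot be compared.

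Among the other collagens, Col6a1 of type VI was 2-fold higher and Col8a1 of type VIII was 2-fold lower at day 28 than at day 6. Col6a1, a chain of the beaded filaments that surround cells, had 22.38, 23.85 and 25.81 from its single probe set, higher at each later array. It was at least 2.17-fold higher at day 14 than at day 6, 3.88-fold higher at day 28 than at day 14 and at least 8.43-fold higher at day 28 than at day 6. Col6a2, its neighbour on the chromosome and partner in the type VI trimer, had 22.61, 22.72 and 23.35, so it was at least 1.53-fold higher at day 28 than at day 6. This bound rests on a probe set of suffix _x_at, a kind open to cross-hybridization. The other Col6a2 probe set, with 21.11, 21.58 and 22.39, lay below background on every array. Col6a3, the third chain of the classical trimer, had 22.17, 22.07 and 22.18, and like Col6a4 and Col6a5 it lay below background on every array.

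Col8a1, a short chain that forms hexagonal networks under endothelia, was the only member described that was 2-fold lower at day 28 than at day 6. It had 28.92, 28.35 and 27.55, lower at each later array. The difference at day 28 against day 6 was 2.59-fold on the main probe set, while a second probe set gave -1.89 on the log2 scale and the third, below background at day 28, was at least 2.53-fold lower. Col7a1, the chain of the anchoring fibrils that fasten the epidermis, had 24.67, 23.71 and 23.88, which was 1.96-fold lower at day 14 than at day 6. Col18a1, the multiplexin whose end is released as endostatin, had 23.08, 22.80 and 23.10, and the transmembrane Col25a1 had 22.98, 23.08 and 23.19. Both stayed within 2-fold and lay near the background, which limits the differences that can be seen. A second Col18a1 probe set, above background at day 28 alone, was at least 1.43-fold higher at day 28 than at day 14. Col15a1, the other multiplexin, had 21.88, 22.78 and 21.71. Its log2 difference of -1.07 at day 28 against day 14 rests on a day 14 value just above the background, and no bound could be given. Of the transmembrane genes below background, Col13a1 had 9.62, 19.95 and 22.30 and Col17a1 had 8.11, 18.68 and 18.99. No difference is drawn from such low values.

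By course over the 2 steps, 2 of the 27 genes were 2-fold higher in both steps, Col20a1 and Col6a1, a course of 0.242% of all 11975 genes above background on at least 1 array. Higher then lower described 3, Col3a1, Col11a1 and Col27a1 (0.610% of all genes). Higher with no 2-fold second step described Col2a1, Col4a4, Col9a1 and Col16a1 (4.53%). Col4a5 was higher in the second step alone (1.55%), and Col12a1 and Col15a1 were counted as lower in it alone (0.768%). For Col15a1 this rests on a day 28 value below background, and no bound could be given. The remaining 15 were not 2-fold apart in either step, and this count includes Col8a1 and Col9a2, which were 2-fold apart over the whole course. Col20a1, Col6a1, Col11a1, Col27a1 and Col4a4 were below background at day 6, so their first step is a lower bound. They entered that step through the day 14 array alone. The courses were not counted over genes above background on both arrays, so the shares beside them carry that limit. The day 14 array enters the 2 steps with opposite signs, and its error alone could give the course higher then lower.

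Collagen chains need a line of enzymes and chaperones to fold, and 56 of 60 listed genes that process, bind or break down collagen were on the array. Of 46 described, 4 were 2-fold higher and 2 lower at day 28 against day 6 (8.70% and 4.35%), shares near those of all genes given above. Both of the lower genes were below background at day 28 with bounds under 2-fold, and with dim values raised to the background the counts were 4 higher and 0 lower. The median was 0.28 at day 28 against day 6 and 0.38 at day 14 against day 6. At day 14 against day 6, 37 of 46 differences were positive (80.4%), where 47.3% of all genes described had a positive difference. P4ha1, a catalytic subunit of prolyl 4-hydroxylase, which stabilizes the triple helix, had 26.86, 27.35 and 27.88 and stood 2.04-fold above day 6 at day 28. P3h3, a prolyl 3-hydroxylase family gene, had 23.95, 25.07 and 24.86, 2.17-fold above day 6 at day 14. Plod1, a lysyl hydroxylase gene, had 27.43, 28.58 and 28.38 and stood 2.21-fold above day 6 at day 14. Fkbp14, a collagen-binding prolyl isomerase of the endoplasmic reticulum, had 25.57, 27.45 and 26.96, the widest difference among folding genes at 3.70-fold for day 14 against day 6. Serpinh1, the collagen chaperone HSP47, had 29.49, 29.71 and 29.42 and was close to level.

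Processing, receptors and breakdown differed by gene. Of the genes that cut or help cut propeptides, Bmp1 had 27.07, 27.30 and 27.35, near level. Pcolce2, an enhancer of that cut, had 23.57, 22.70 and 20.76 and was at least 1.72-fold lower at day 28 than at day 6, and the protease gene Tll1 had 23.16, 22.10 and 20.03 and was at least 1.29-fold lower. These were the 2 partner genes counted as lower, and both lay below background at day 28. Of the receptors, Ddr2, a tyrosine kinase bound by fibrillar collagen, had 28.15, 26.64 and 27.30, which was 2.84-fold lower at day 14 than at day 6. Itga1, an integrin chain that binds type IV collagen, had 24.83, 25.62 and 25.49. No member of the basement membrane partner list was 2-fold apart against day 6, and Nid2, a nidogen, was 2.04-fold lower at day 28 than at day 14, with 26.48, 26.98 and 25.95 at days 6, 14 and 28. Mmp2, a gelatinase that also cuts type IV collagen, had 27.75, 29.32 and 28.99 and was 2.95-fold higher at day 14 and 2.36-fold higher at day 28, each against day 6. Mmp13, a collagenase for fibrils, had 22.80, 23.11 and 24.85 and stood 4.15-fold above day 6 at day 28, from a day 6 value near the background.

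**Figure D4:**
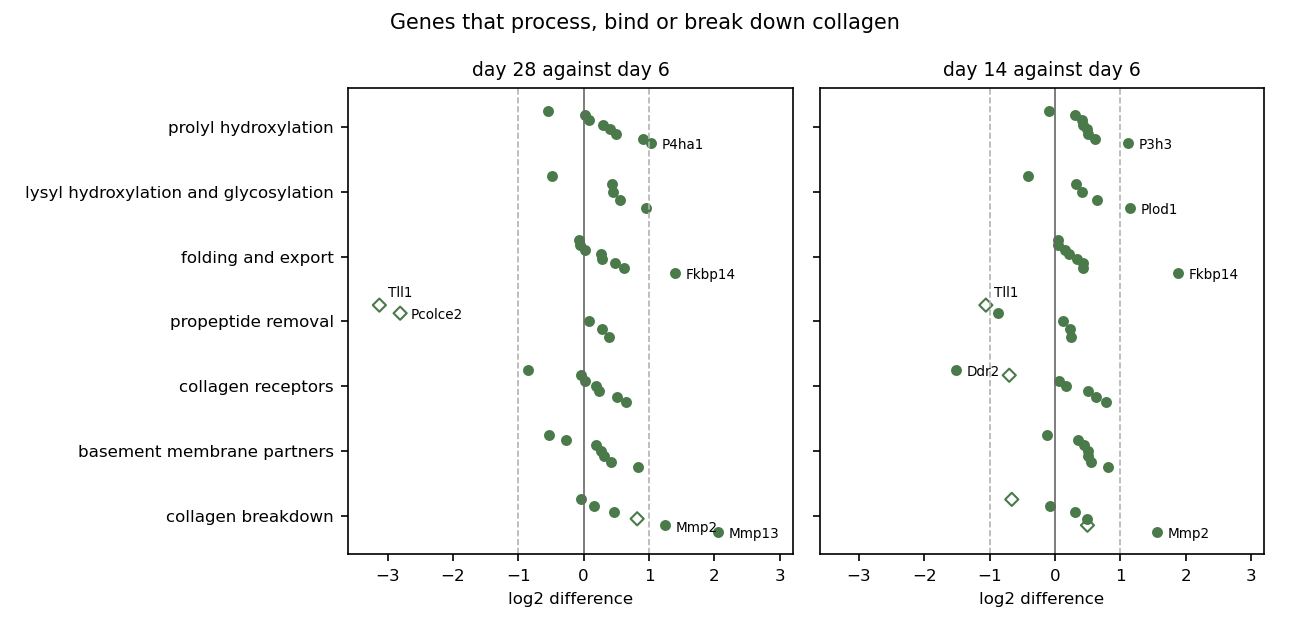
Log2 differences (horizontal axis, later minus earlier) of listed genes that process, bind or break down collagen, 1 point per gene with at least 1 array above background and 1 row per list, with dashed lines at 2-fold and names for genes past them; open diamonds had 1 array below background. At day 28 against day 6, 4 of 46 genes were 2-fold higher, and the 2 lower ones, Pcolce2 and Tll1, are open diamonds whose bounds are under 2-fold.

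Markers of other cell types that make collagen were mixed. Of 8 fibroblast markers, Lum, Thy1, Dpt and Twist2 lay below background on every array, and the mean of the 8 was 21.96, 22.46 and 22.66 at days 6, 14 and 28. Of the other 4, Pdgfra had 23.88, 24.26 and 25.50 and stood 3.06-fold above day 6 at day 28, where Dcn, with 21.92, 22.61 and 23.05, stood at least 1.24-fold above it. Pdgfrb had 27.72, 28.65 and 27.93 and Mfap5 24.50, 24.70 and 24.09, both highest at day 14 and within 2-fold. Of 6 endothelial markers, Pecam1, Kdr, Tek, Tie1 and Emcn lay below background on every array, and Cdh5 had 23.70, 25.85 and 27.93, higher at each later array like Col20a1 and Col6a1. Of 6 Schwann and glial markers on the array, Ngfr and Gfap lay below background on every array and the mean was 23.84, 24.63 and 24.23. S100b had 24.70, 27.52 and 26.83, 7.09-fold higher at day 14 than at day 6, and Erbb3 had 27.66, 29.35 and 29.09, 3.22-fold higher, so both were highest at day 14 like Col27a1 and Col11a1. Mbp went the other way, with 23.93, 23.30 and 22.43, at least 2.21-fold lower at day 28 than at day 6, and Sox2 had 22.88, 23.64 and 23.09, within 2-fold. Of 6 macrophage markers, Ptprc and Itgam lay below background on every array and the mean was 23.18, 23.20 and 23.75. Lyz2 had 24.57, 27.17 and 27.31, 6.09-fold higher at day 14 and 6.70-fold higher at day 28, each against day 6. Cd68 had 25.09, 23.98 and 25.99, 2.17-fold lower at day 14 than at day 6 and 4.03-fold higher at day 28 than at day 14. Csf1r and Adgre1 stayed within 2-fold. The keratinocyte mean was 22.94, 22.76 and 22.89, with 3 of 6 markers below background on every array and the others within 2-fold. The part of other cells in the collagen differences was not tested. The 3′ minus 5′ difference of the Actb control was 0.58, 0.76 and 0.75, and that of Gapdh -0.24, -0.10 and -0.09, at days 6, 14 and 28.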

How the data were processed

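Total RNA of 3 cultures was labelled with biotin and hybridized to Affymetrix arrays, per the labels' protocols. The authors deposited 1 value per probe set and array, taken here as log2. The 3 sorted columns were identical, so the authors had quantile normalized them, and a difference common to most genes cannot be seen. Summarization, log base and the constant that set the median to 22.9 are not given in the sources used here. From hybridization controls a base of 2 was inferred, since their slopes were 0.77 to 0.80 per log2 unit of concentration, taking the maker's nominal concentrations. Folds assume it.

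Gene names came from the platform annotation: 34958 had 1 gene, 932 several and 9211 none. No collagen probe set was shared between genes, and symbols of a gene table of GRCm38.p6 changed no member. The background used the 90th percentile of 106 silent probe sets. Alternatives were the mean of probe sets, leaving out probe sets with the suffixes _s_at, _x_at and _a_at, the 75th percentile, and dim values raised to the background. Further alternatives were equal hybridization controls, updated symbols, a 1.5-fold threshold, genes above background on both arrays, and no filter. The suffixes mark probe sets that can match more than 1 transcript or gene, and leaving them out kept 38 of the 42 collagen genes. With 1 array per time, no test was made, and precision is limited by the number of arrays. The members, lists and alternatives were chosen with earlier results of these data known. All collagen genes could be named, partner genes by size of difference, and markers where they bear on a result. The steps were tested on simulated data. Python 3.11.15, numpy 2.4.6 and pandas 2.3.3 were used.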

Additional observations from a re-analysis of the deposited data

How the results depend on the processing

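The counts of 2-fold collagen genes stayed within 1.5 times of those reported under every setting but the lower threshold and, in both comparisons with day 6, the limit to genes above background on both arrays, a count added after seeing the data. Under that limit they were 4 at day 28 against day 6 (3 higher, 1 lower) and 4 at day 14 against day 6 (4 higher, 0 lower), and 4 partner genes (4 higher, 0 lower). At 1.5-fold they were 16 at day 28 against day 6 (13 higher, 3 lower), 16 at day 14 against day 6 (15 higher, 1 lower) and 13 at day 28 against day 14 (4 higher, 9 lower), and 13 partner genes (10 higher, 3 lower). The medians depended on dim genes. For day 28 against day 6 the median was 0.21 with the background at the 75th percentile, 0.0118 with genes above background on both arrays and 0.012 with no filter, a setting chosen after seeing the data. For day 14 against day 6 it was 0.33 with dim values raised to the background, 0.33 with genes above it on both arrays and 0.31 with no filter. Shifting each array to equal hybridization controls moved every gene by -0.08 in both comparisons with day 6. Of the 25 gene differences at 2-fold, 24 kept their sign in every setting that gave a value and 22 stayed 2-fold. Col15a1 at day 28 against day 14 turned to 0.0118 when dim values were raised, since its day 28 value was then raised to that array's background, just above the day 14 value, which lay above its own background and was not raised. No paired analysis was possible because each time point had 1 array, and no array could be left out.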

Other observations

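Other proteins that carry a collagen-like triple helix but are not named as collagen chains were looked up after the collagen values were seen. Of 19 such genes on the array, 10 lay below background on every array, among them Marco and Msr1, scavenger receptors, Adipoq, an adipocyte hormone gene, and C1qa and C1qc, complement chains. Colec12, a scavenger receptor gene with a collagen-like stalk, had values of 26.19, 26.87 and 26.65 at days 6, 14 and 28. Colq, which anchors acetylcholinesterase at synapses, had 23.50, 22.87 and 23.60. Fcna, a ficolin gene, had 23.48, 22.63 and 23.37, with day 14 near the background. The factors Sox5 and Sox6, which act beside Sox9 on cartilage collagen genes, were looked up in the same way. Sox6 had 26.20, 27.27 and 26.22, 2.10-fold above day 6 at day 14 and 2.08-fold below day 14 at day 28. These Sox6 values come from 1 probe set of suffix _x_at, a kind open to cross-hybridization. Sox5 had 23.94, 24.53 and 23.84, highest at day 14 and within 2-fold throughout.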
